A study of Mus musculus with 16 samples.

Results

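The genes described here are 10 interferon-inducible GTPases, 5 of the immunity-related GTPase (IRG) family and 5 guanylate-binding proteins (GBP), chosen by gene symbol. The choice was made with earlier results of these data known. A member was measured where a probe set of the array mapped to its symbol alone, which held for 8 of the 10, namely the IRG genes Iigp1, Igtp, Irgm1 and Irgm2 and the GBP genes Gbp3, Gbp6, Gbp7 and Gbp9, out of 22180 genes in all. Each of the 8 had 1 such probe set. The probe sets for the other 2 members, Ifi47 and Gbp2, are shared with Olfr56 and with Gbp2b, so no value is given for either.

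The RNA came from CD8 T cells of the spleens of female mice, of the strain labelled C56BL/6, whose bone marrow came from Il4i1 knockout (KO) or wild-type (WT) donors. In such chimeras the cells that grow from the graft carry the donor genotype and the cells of the host do not. All mice, KO and WT chimeras alike, had also received leukaemia cells of the Eµ-TCL1 model, in which a B cell enhancer drives the TCL1 oncogene and gives a disease like chronic lymphocytic leukaemia (CLL), and cells were sorted 5 weeks later. The cells sorted as effector cells carried CD44 and lacked CD127, and those sorted as memory cells were high for both. This gave 4 groups of 4 arrays, effector KO and effector WT, memory KO and memory WT. The labels give no age and do not say whether arrays of a group came from separate mice, so p-values measure the spread between arrays, which may be technical.

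Both families are GTP-binding proteins that mouse cells make in response to interferons, above all interferon gamma. IRG proteins gather on the vacuoles of intracellular parasites and bacteria. There the effector protein encoded by Iigp1 (also called Irga6) helps to break the membrane, while the regulators encoded by Irgm1, Irgm2 and Igtp (also called Irgm3) sit on the cell's own membranes and hold the effectors inactive. GBP proteins assemble on the same targets and act with autophagy proteins and inflammasomes. In mouse T cells the best known role is that of Irgm1, which protects activated CD4 T cells from death in the presence of interferon gamma. Interferons act on the transcription of these genes through gamma-activated sites (GAS) and interferon-stimulated response elements (ISRE) in their promoters.

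The promoters are shown for 5 of the measured members, taken from the RefSeq promoter table (build GRCm38.p6). Of these, 3 (Igtp, Irgm2, Irgm1) differed between the sorted subsets and 2 (Gbp7, Gbp3) did not pass the test. Each window runs 5′ to 3′ on the strand of the gene, from 250 bases before its start over 300 bases. Capitals mark matches to the GAS letters TTCNNNGAA or to the ISRE core, which is GAAA, any 2 bases and GAAA again. Both were searched on both strands, and read backward the core is TTTC, any 2 bases and TTTC.
Igtp, chr11:58199306-58199605, plus strand: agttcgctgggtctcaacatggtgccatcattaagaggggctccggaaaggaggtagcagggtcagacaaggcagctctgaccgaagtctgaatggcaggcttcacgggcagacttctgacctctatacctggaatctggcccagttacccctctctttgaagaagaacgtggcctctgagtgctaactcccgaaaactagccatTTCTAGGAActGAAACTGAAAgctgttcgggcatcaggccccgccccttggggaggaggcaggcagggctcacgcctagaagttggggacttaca
Irgm2, chr11:58214727-58215026, plus strand: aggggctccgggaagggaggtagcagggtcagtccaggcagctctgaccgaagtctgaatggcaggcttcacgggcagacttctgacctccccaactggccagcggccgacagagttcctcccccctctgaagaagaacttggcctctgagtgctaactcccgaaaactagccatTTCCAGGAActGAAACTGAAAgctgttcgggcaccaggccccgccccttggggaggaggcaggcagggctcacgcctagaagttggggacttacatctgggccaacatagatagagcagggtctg
Irgm1, chr11:48871371-48871670, minus strand: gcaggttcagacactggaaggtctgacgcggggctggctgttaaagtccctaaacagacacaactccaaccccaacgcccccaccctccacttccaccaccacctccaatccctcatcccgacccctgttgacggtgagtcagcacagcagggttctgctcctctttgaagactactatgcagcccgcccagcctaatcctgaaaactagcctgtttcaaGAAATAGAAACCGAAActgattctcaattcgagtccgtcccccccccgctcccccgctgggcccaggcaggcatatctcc
Gbp7, chr3:142530086-142530385, plus strand: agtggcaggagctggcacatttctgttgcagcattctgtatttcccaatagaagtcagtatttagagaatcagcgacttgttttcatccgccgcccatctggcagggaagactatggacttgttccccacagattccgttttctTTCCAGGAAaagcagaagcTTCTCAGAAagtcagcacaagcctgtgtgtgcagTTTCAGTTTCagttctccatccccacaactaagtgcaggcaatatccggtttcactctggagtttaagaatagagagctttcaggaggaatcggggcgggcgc
Gbp3, chr3:142559794-142560093, plus strand: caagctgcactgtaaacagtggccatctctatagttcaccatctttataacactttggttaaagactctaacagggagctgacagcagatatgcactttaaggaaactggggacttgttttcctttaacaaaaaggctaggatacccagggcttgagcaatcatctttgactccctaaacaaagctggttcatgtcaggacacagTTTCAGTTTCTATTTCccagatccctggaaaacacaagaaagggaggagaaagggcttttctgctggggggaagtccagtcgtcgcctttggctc

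An ISRE core stood in all 5 printed windows, against 3.44% of the 32851 promoter windows in the table, and a GAS in 3 of them, against 8.3%. In Igtp and in Irgm2 the GAS stood 2 bases before the ISRE core, and no GAS was found in the window of Irgm1. The 2 ISRE matches of Irgm1 share 4 bases, as do the 2 of Gbp3, so each pair may be a single longer element. The window of Gbp7 held 2 GAS matches and 1 ISRE core, with no GAS overlapping an ISRE core in any of the 5 windows. Gbp3 has a second window, for a later start, that held neither motif. The windows of the unmeasured members Ifi47 and Gbp2 were also searched. That of Ifi47 held neither motif, and that of Gbp2 held 1 ISRE core. Over all 8 windows of these 7 members, 6 held an ISRE core and 3 a GAS. These are matches of letters and not measured binding sites. The ISRE core stood both in IRG genes that differed between the subsets and in GBP genes that did not pass. Of the measured members not shown, Gbp6 and Gbp9 have no window in the table, and Iigp1 was left out by choice.

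Family members lie next to each other in the genome. In the order of protein-coding genes of RefSeq, Igtp and Irgm2 are direct neighbours, as are Gbp7 and Gbp3, and Gbp10 stands next to Gbp6. Iigp1 lies at the end of a run of IRG genes that also holds Gm4951 and Gm4841. Whether probes of these family members also bind RNA of a neighbouring copy was not tested.

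The 16 arrays had medians of 4.12 to 4.22 on the log2 scale. Over all genes, effector KO 4 correlated least with the other 15 arrays (Pearson's r 0.965 to 0.974), while all other pairs lay at 0.971 to 0.994. Without it, the genes named below as called between effector KO and memory KO kept their calls. Some other listed genes passed there only without it. The probe set of Il4i1 is shared with Nup62 and Il4i1b, so it does not check the genotype. Of 12 CD8 T cell markers 7 were measured, and their mean lay between 10.94 and 11.21 on every array. Il7r, the gene of the sort marker CD127, was at 5.00 to 6.60 in effector KO, 3.83 to 4.46 in effector WT, 10.94 to 11.27 in memory KO and 10.29 to 10.96 in memory WT. Cd44, the other sort gene, gave effector minus memory log2 differences of -0.86 in KO and -0.64 in WT chimeras (limma adjusted p = 0.000335 and 0.00521). The 1.65 difference of Il7r between effector KO and effector WT passed the test (limma adjusted p = 0.0183). Of the 8 measured GTPases 7 lay above the array median on all 16 arrays, and Gbp6 lay above it on 0.

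The question across subsets was how effector cells differ from memory cells in each kind of chimera. All 4 measured IRG genes were lower in effector cells than in memory cells, in KO and in WT chimeras, with differences of 1.52-fold to 5.92-fold, and none of the 4 measured GBP genes passed the test in either. In KO chimeras 4 of 8 GTPases were called lower in effector cells (adjusted p under 0.05 over all genes), where 4.3% of all genes were called lower. In WT chimeras it was again 4 of 8, where 2.3% of all genes were called lower. Since the members were chosen with earlier results known, these shares stand beside the counts as description only. Called higher in effector cells were 3.14% of all genes in KO and 0.92% in WT chimeras. The median log2 fold change of the 8 was -0.57 in KO and -0.33 in WT chimeras, against 0.01 over all genes in both. In these sorted populations, fewer cells making an RNA and less RNA per cell cannot be told apart.

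Iigp1, the vacuole-breaking effector, had the largest difference of the 8. Its log2 expression was 6.59, 5.98, 5.97 and 6.23 in effector KO, against 9.04, 8.0, 8.76 and 9.24 in memory KO. In WT chimeras it was 5.98, 5.84, 5.70 and 5.76 in effector cells, against 8.71, 7.95, 8.27 and 7.71 in memory cells. Every effector array lay more than 1 log2 unit below every memory array. Effector arrays all lay below memory arrays for 6.1% of all genes in KO and for 6.8% in WT chimeras. The log2 fold change was -2.57 ± 0.24 (SE, n = 4 and 4, limma adjusted p = 1.85e-05) in KO, or 5.92-fold lower, and -2.34 ± 0.24 (adjusted p = 5.16e-05) in WT, or 5.05-fold lower.

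Igtp, a regulator of the IRG effectors, was lower in effector cells by a smaller margin. It stood at 7.93, 7.55, 8.05 and 8.58 in effector KO, against 9.70, 9.24, 9.24 and 9.99 in memory KO. Effector WT arrays gave 7.72, 7.86, 7.86 and 7.90, against 9.32, 8.86, 9.11 and 8.83 in memory WT. The groups did not overlap in either kind of chimera, and effector KO 4 was the highest effector array. The log2 fold change was -1.51 ± 0.20 (n = 4 and 4, limma adjusted p = 0.000246) in KO and -1.20 ± 0.20 (adjusted p = 0.00236) in WT chimeras. Without effector KO 4 the KO value was -1.70.

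Irgm2, the genomic neighbour of Igtp and likewise a regulator, had values of 7.59, 7.33, 7.36 and 7.95 in effector KO, against 8.68, 8.65, 8.53 and 9.14 in memory KO. In WT chimeras they were 7.11, 7.23, 7.49 and 7.42 in effector cells, against 8.44, 7.92, 8.14 and 8.20 in memory cells. Again effector and memory arrays did not overlap. The log2 fold change was -1.19 ± 0.16 (n = 4 and 4, limma adjusted p = 0.000289) in KO and -0.86 ± 0.16 (adjusted p = 0.00583) in WT chimeras.

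Irgm1, the regulator known for its role in T cell survival, showed the smallest difference of the 4 IRG genes. Effector KO arrays stood at 6.94, 6.98, 6.80 and 6.76, against 7.99, 7.71, 7.51 and 8.26 in memory KO. Effector WT arrays stood at 6.67, 6.67, 6.70 and 6.89, against 7.59, 6.91, 7.36 and 7.49 in memory WT. The WT groups came closest to each other at effector WT 4, with 6.89, and memory WT 2, with 6.91. The log2 fold change was -1.0 ± 0.16 (n = 4 and 4, limma adjusted p = 0.000962) in KO and -0.60 ± 0.16 (adjusted p = 0.0456) in WT chimeras. The WT call stands close to the threshold and was lost in 11 of 16 fits that left out 1 array, with adjusted p values of 0.00875 to 0.163 and log2 fold changes of -0.75 to -0.52.

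**Figure D1:**
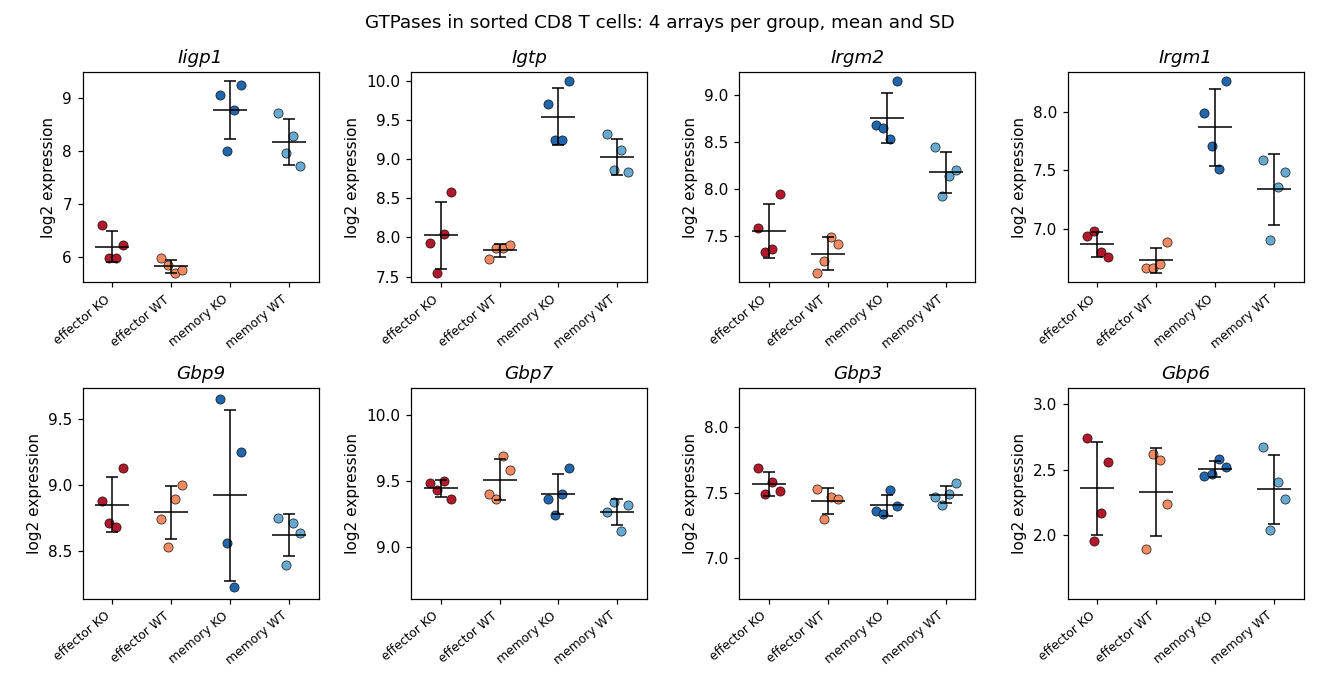
Log2 expression (vertical axis) of the 8 measured GTPases in effector KO and effector WT, then memory KO and memory WT cells. Points are arrays (n = 4 per group), long bars are means and error bars are SD. The IRG genes in the upper row sit lower in both effector groups, and the GBP genes in the lower row show smaller differences between group means, with Gbp7 higher on every effector WT array than on any memory WT array.

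The GBP genes differed less between effector and memory cells, with log2 differences of -0.15 to 0.25. Gbp7, which in mice helps to assemble the phagocyte oxidase on vacuoles, was at 9.40, 9.36, 9.69 and 9.58 in effector WT, against 9.26, 9.34, 9.12 and 9.32 in memory WT. These groups did not overlap, as was so for 6.41% of all genes in that direction, and the difference of 0.25 ± 0.10 did not pass (limma adjusted p = 0.239). In KO chimeras Gbp7 stood at 9.48, 9.43, 9.50 and 9.36 in effector cells, against 9.36, 9.24, 9.40 and 9.60 in memory cells, a difference of 0.04 with a 95% confidence interval of -0.17 to 0.25.

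Gbp9 is among the mouse GBPs that gather on parasite vacuoles, as are Gbp3 and Gbp6. It was at 8.88, 8.71, 8.68 and 9.13 in effector KO, against 9.65, 8.56, 8.22 and 9.25 in memory KO. Memory KO held both the lowest and the highest of the 16 arrays for this gene, with an SD of 0.65, against 0.16 to 0.21 in the other groups. The effector minus memory difference was -0.07 (95% confidence interval -0.56 to 0.42) in KO and 0.17 (-0.32 to 0.66) in WT chimeras. Gbp9 had 8.74, 8.53, 8.89 and 9.0 in effector WT, against 8.75, 8.39, 8.71 and 8.63 in memory WT.

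Gbp3 stayed between 7.30 and 7.69 over all 16 arrays. It ranged from 7.49 to 7.69 in effector KO and from 7.34 to 7.52 in memory KO, and from 7.30 to 7.53 in effector WT and from 7.41 to 7.57 in memory WT. Its difference between effector and memory cells was 0.16 (-0.01 to 0.34) in KO and -0.05 (-0.23 to 0.13) in WT chimeras. Gbp6 had means of 2.36 in effector KO and 2.51 in memory KO, and of 2.33 in effector WT and 2.35 in memory WT. No background level came with the values, and at this dim signal a difference in Gbp6 RNA may not have been measurable.

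**Figure D2:**
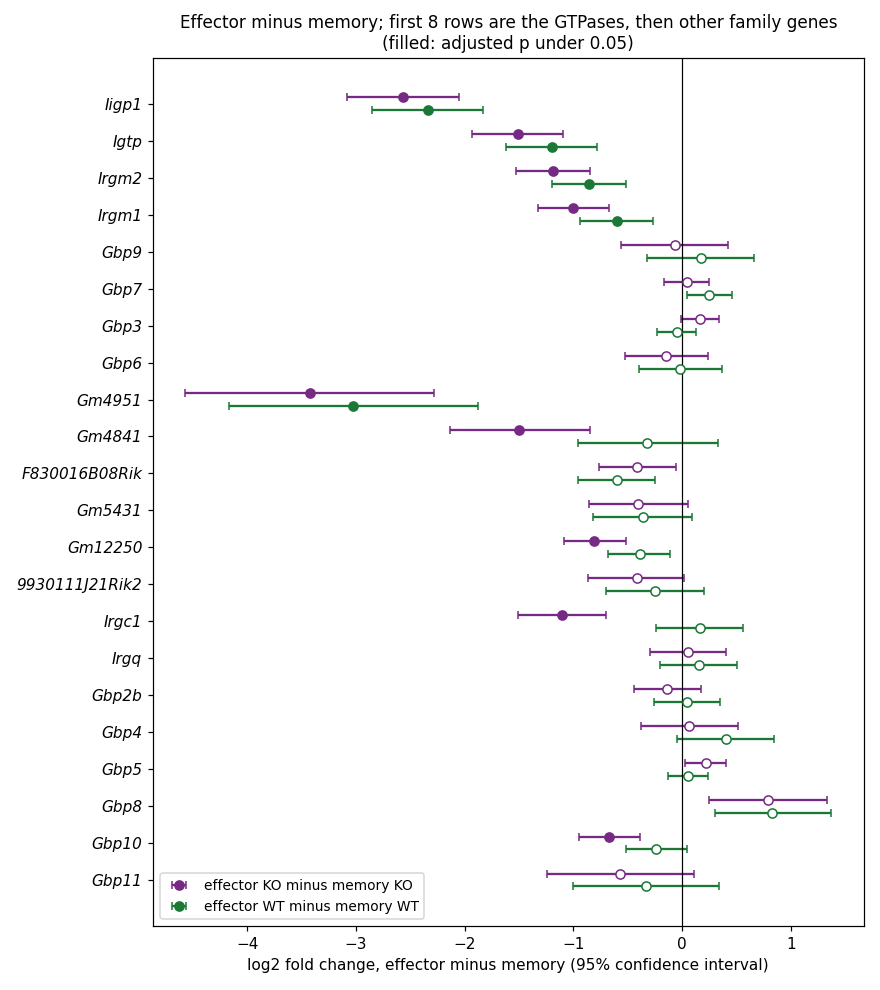
Log2 fold change of effector minus memory cells (horizontal axis, with 95% confidence intervals from the fit) for the 8 measured GTPases and 14 further IRG and GBP family genes, in KO chimeras (purple) and WT chimeras (green). Filled points passed an adjusted p of 0.05; the 4 IRG members do so in both kinds of chimera, and the 4 GBP members in neither.

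Of 21 further family genes on a list, 14 had a probe set of their own. In KO chimeras 5 of the 14 were lower in effector cells and 0 higher, and in WT chimeras 1 was lower and 0 higher. The one called in both was Gm4951, an IRG family gene in the same gene run as Iigp1. It averaged 4.97 in effector KO and 8.40 in memory KO, and 4.40 in effector WT and 7.42 in memory WT, with log2 fold changes of -3.42 ± 0.54 (n = 4 and 4, limma adjusted p = 0.00101) and -3.03 ± 0.54 (adjusted p = 0.00439). Effector KO 4, at 6.91, stood above the other effector KO arrays (3.36 to 5.34) for this gene, and without it the KO value was -4.07 ± 0.41 (adjusted p = 4.06e-05).

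The other 4 called in KO chimeras were Gm4841 (-1.50), Irgc1 (-1.11), Gm12250 (-0.81) and Gbp10 (-0.67), of which Gm12250 encodes the IRG effector Irgb10. Gbp10 was named after its values were seen. It is the GBP gene that was called, at 9.07 to 9.32 in effector KO, against 9.54 to 10.27 in memory KO. Gbp8 leaned the other way, at 8.59 in effector KO against 7.80 in memory KO and at 8.40 in effector WT against 7.57 in memory WT, without passing (adjusted p = 0.0711 and 0.0941). It too was picked after its values were seen. No difference between the KO and WT chimeras in these subset effects passed, as 0 of 22180 genes (0.0%) passed the interaction test (adjusted p under 0.05; 1296 genes had an unadjusted p under 0.05).

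The 4 IRG members followed a common order, with memory KO highest, then memory WT, effector KO and effector WT. This order is that of the group means. The neighbours memory WT and effector KO overlapped for Irgm2 (7.33 to 7.95 in effector KO, 7.92 to 8.44 in memory WT) and Irgm1 (6.76 to 6.98 in effector KO, 6.91 to 7.59 in memory WT). Within memory KO, array 4 was the highest for each of the 4 and array 1 came next for each. Averaged over the 4 IRG genes after centring each on its own mean, memory KO 1 and 4 stood at 1.1 and 1.41, memory KO 2 and 3 at 0.65 and 0.76, and memory WT arrays at 0.16 to 0.77. Effector KO arrays lay between -0.79 and -0.37, and effector WT arrays between -0.88 and -0.75. The mean of Gbp3, Gbp7 and Gbp9, treated the same way, gave 0.23 for memory KO 1, 0.20 for memory KO 4 and -0.18 for each of the other memory KO arrays. It lay at -0.02 to 0.13 in effector KO, -0.16 to 0.13 in effector WT and -0.18 to -0.05 in memory WT.

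**Figure D3:**
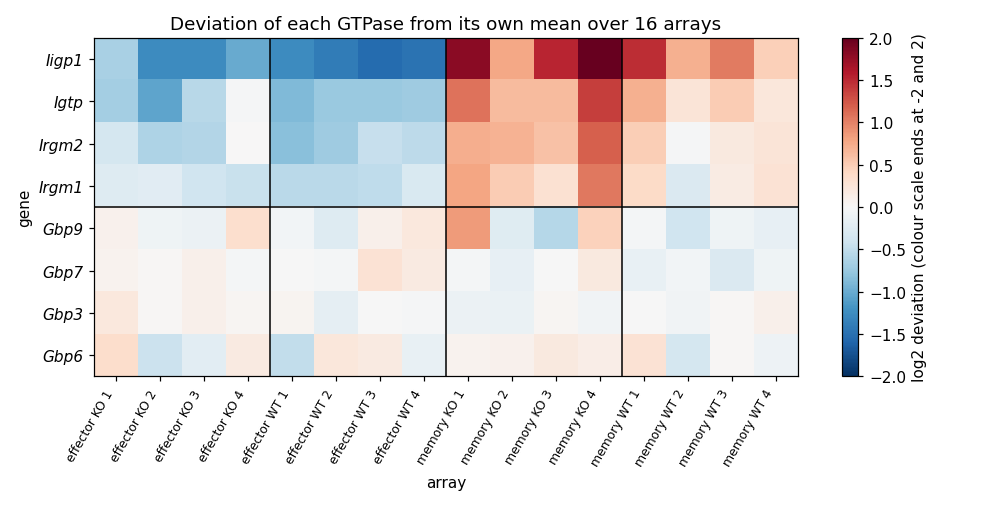
Deviation of each GTPase (rows) from its own mean over the 16 arrays (columns), in log2 units on a colour scale that ends at -2 and 2. Rows above the horizontal line are IRG genes, rows below it GBP genes; memory KO 1 and memory KO 4 are the darkest red for the IRG genes and also the highest for Gbp9.

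The comparison of KO with WT chimeras asked whether the loss of Il4i1, a secreted amino acid oxidase, in bone marrow derived cells goes with other GTPase levels. None of the 8 GTPases passed in effector cells, where 0.0541% of all genes passed, or in memory cells, where 0.113% did. In memory cells the 4 IRG genes were at 0.51 to 0.60 log2 units above WT, while all genes had a median of 0.02. Without memory KO 4 they ranged from 0.36 for Igtp to 0.45 for Irgm2. In effector cells they were at 0.14 to 0.37, against a median of 0.01. The 4 GBP genes lay between -0.08 and 0.30 in memory cells and between -0.07 and 0.13 in effector cells.

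Irgm2 came nearest to the threshold in memory cells. Its memory KO arrays lay at 8.53 to 9.14, against 7.92 to 8.44 in memory WT, and did not overlap, as was so for 3.12% of all genes in that direction. The log2 fold change was 0.58 ± 0.16 (n = 4 and 4, 95% confidence interval 0.24 to 0.91, limma adjusted p = 0.191). Irgm1 averaged 7.87 in memory KO and 7.34 in memory WT, a difference of 0.53 (0.20 to 0.86, adjusted p = 0.216). For Igtp the memory difference was 0.51 (0.09 to 0.93, adjusted p = 0.341) and for Iigp1 0.60 (0.09 to 1.11, adjusted p = 0.354), and these 3 genes had overlapping groups. The intervals hold for each gene alone and leave out the adjustment over all genes.

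The IRG differences in effector cells had 95% confidence intervals that included 0. Iigp1 averaged 6.20 ± 0.29 in effector KO and 5.82 ± 0.12 in effector WT (SD, n = 4 each), and Igtp averaged 8.03 ± 0.42 and 7.83 ± 0.08. The difference in Igtp was 0.19 with all arrays and 0.01 without effector KO 4, and that of Irgm2 was 0.24 with all arrays and 0.11 without it. Il7r, at 5.00 to 6.60 in effector KO and 3.83 to 4.46 in effector WT, was also higher in effector KO. The effector array with the most Il7r was effector KO 1, and the highest one was effector KO 1 for Iigp1, effector KO 2 for Irgm1 and effector KO 4 for Igtp and Irgm2. The part of Il7r in these differences was not tested. Averaged over both subsets, 0 of 8 GTPases passed, where 0.194% of all genes did, and the IRG genes had adjusted p values from 0.122 for Irgm2 to 0.273 for Igtp. The test of a difference between the subsets in their KO effect gave adjusted p values of 0.848 or more for all 8, with estimates (effector minus memory) of -0.39 for Irgm1 to 0.21 for Gbp3.

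**Figure D4:**
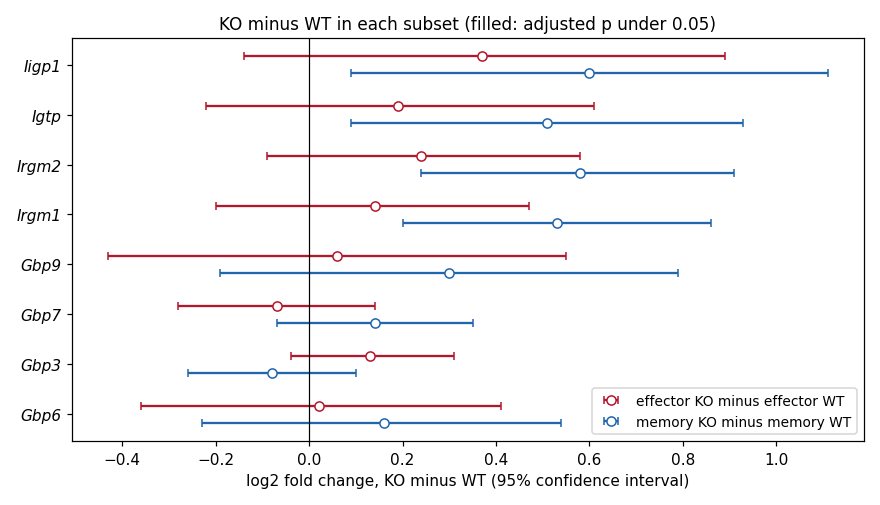
Log2 fold change of KO minus WT (horizontal axis, with 95% confidence intervals) for the 8 measured GTPases in effector cells (red) and memory cells (blue), n = 4 arrays per group. All points are open, since none passed an adjusted p of 0.05; the memory intervals of the 4 IRG genes lie above 0 and those of the GBP genes include it.

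Among further family genes, Irgc1, an IRG gene known from the testis, was higher in memory KO. It was at 5.11, 3.93, 4.62 and 4.58 in memory KO, against 3.32, 3.17, 3.29 and 3.21 in memory WT, a log2 fold change of 1.31 ± 0.19 (n = 4 and 4, limma adjusted p = 0.00915). Its effector groups were at 3.19 to 3.82 in KO and 3.28 to 3.68 in WT, and its signal lay above the array median on 3 of 16 arrays. Irgc1 lies on the chromosome of Il4i1. It was the 1 gene of the 14 that passed in memory cells, and 0 of the 14 passed in effector cells.

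Several markers of B and CLL cells and of myeloid cells differed between the subsets. Of 16 measured B and CLL cell markers, 4 were lower in effector than in memory cells in KO chimeras and 13 in WT chimeras, with 0 higher in either. Their summed linear level was 1298 to 1798 in effector KO and 3111 to 3800 in memory KO, and 1118 to 1334 in effector WT and 2717 to 4733 in memory WT. Most of this sum was Ighm, the immunoglobulin mu gene, at 555 to 1055 in effector KO and 2190 to 2861 in memory KO, and Cd37, at 467 to 560 in effector KO and 460 to 539 in memory KO. Cd37 was picked for its brightness, after its values were seen, and not by its p. The other 14 markers summed to 206 to 277 in effector KO and 333 to 601 in memory KO, and to 206 to 219 in effector WT and 493 to 1128 in memory WT. Of 20 myeloid markers 7 were lower in each kind of chimera and 1 higher in KO. The sum of the myeloid markers was 1450 to 1591 in effector KO and 1450 to 2222 in memory KO, and 1191 to 1601 in effector WT and 1806 to 2388 in memory WT. No marker can be called absent without a background level, and 5 of the B and CLL markers and 6 of the myeloid markers averaged under the array median. Between memory KO and memory WT, 14 of 16 B and CLL markers were lower in KO, at a median of -0.73, and 1 passed. The 2 brightest had higher means in memory KO than in memory WT, Ighm at 11.33 and 11.09 and Cd37 at 8.99 and 8.93. Neither of these differences passed. Of 8 CD4 and regulatory T cell markers 1 was higher in effector KO than in memory KO and 1 lower in effector WT than in memory WT, and of 6 NK cell markers 1 was higher and 1 lower in KO chimeras. Which cells made the RNA of these markers, CD8 T cells or others, was not tested. The part of these markers in the IRG differences was not tested.

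The interferon pathway around the GTPases was read from a list of 20 receptor and signalling genes, of which 19 are reported. In KO chimeras 5 were lower in effector cells and 0 higher, and in WT chimeras 5 were lower and 2 higher. The 5 lower in KO and the 5 lower in WT were Ifngr1, Ifngr2, Ifnar2, Socs1 and Usp18. Both chains of the interferon gamma receptor were among them. Ifngr1 was at 9.69 to 10.16 in effector KO and 10.29 to 10.81 in memory KO, and at 9.61 to 10.03 in effector WT and 10.39 to 10.68 in memory WT (log2 fold changes -0.65 and -0.69, limma adjusted p = 0.00612 and 0.00749). Ifngr2 gave -1.13 ± 0.18 in KO and -0.93 ± 0.18 in WT chimeras (adjusted p = 0.00133 and 0.00909). Ifnar2, a chain of the type I interferon receptor, gave -0.75 and -0.98 (adjusted p = 0.0043 and 0.00106). It was also the 1 gene of the 19 that passed for KO against WT over both subsets (0.57, adjusted p = 0.0289). Without effector KO 4, Irf8 passed as higher in effector KO than in memory KO (1.13, limma adjusted p = 0.0143). Irf9 then passed as lower (-0.56, adjusted p = 0.00866), and both were named after their values were seen.

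Socs1, an inhibitor of JAK signalling that interferons induce, had effector minus memory log2 differences of -0.86 ± 0.12 in KO and -0.82 ± 0.12 in WT chimeras (limma adjusted p = 0.000307 and 0.000741). Usp18, a brake on type I interferon signalling, was at -1.46 and -1.37 (adjusted p = 0.00112 and 0.00322). The transcription factor gene Irf1 did not follow, at 0.26 in KO and 0.31 in WT chimeras (adjusted p = 0.289 for each). The 2 genes higher in effector WT were Nlrc5, which activates MHC class I genes (0.71, adjusted p = 0.0158), and Irf2 (0.47, adjusted p = 0.0499), both named after their values were seen.

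Ifng, the gene of interferon gamma itself, ran opposite to the IRG genes in KO chimeras. It was at 9.98, 10.44, 10.12 and 10.16 in effector KO, against 8.20, 8.70, 9.15 and 7.76 in memory KO, a log2 fold change of 1.72 ± 0.24 (n = 4 and 4, limma adjusted p = 0.000354). In WT chimeras it was at 10.42 to 10.54 in effector cells and at 9.54 to 10.38 in memory cells (0.69 ± 0.24, adjusted p = 0.15). The lowest Ifng values of the 16 arrays were those of memory KO 4 and memory KO 1, the arrays that were highest for the IRG genes. Between memory KO and memory WT, Ifng passed as lower (-1.34 ± 0.24, adjusted p = 0.0404).

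**Figure D5:**
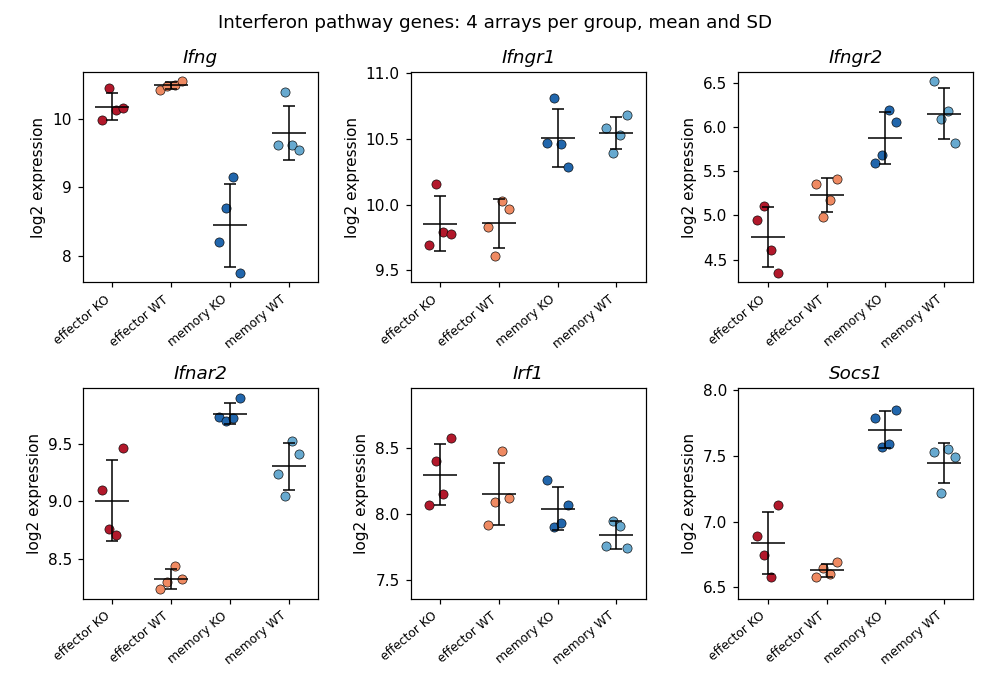
Log2 expression (vertical axis) of Ifng, Ifngr1, Ifngr2, Ifnar2, Irf1 and Socs1 in effector KO and effector WT, then memory KO and memory WT cells. Points are arrays (n = 4 per group), long bars are means and error bars are SD; Ifng is lowest in memory KO, while both receptor chains for interferon gamma, Ifnar2 and Socs1 sit lower in the effector groups.

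Other targets of interferons were counted on lists of genes outside the GTPase families. Of 22 measured targets of interferon gamma, 1 was lower in effector cells in KO chimeras and 3 in WT chimeras, with 0 higher and medians of 0.00 and 0.02. These were the chemokine gene Cxcl9 in both (-0.79 and -1.20, limma adjusted p = 0.0118 and 0.00107) and, in WT, the MHC class II activator Ciita (-0.62, adjusted p = 0.013) and the chemokine gene Cxcl10 (-0.85, adjusted p = 0.0473). Markers of B and CLL cells and of myeloid cells were lower in effector cells as well, and their part in these differences was not tested. The count of 0 higher in KO chimeras depended on effector KO 4. Without that array Casp4 (0.71, limma adjusted p = 0.00526) and Tap2 (0.42, adjusted p = 0.0101) passed as higher in effector KO. Both are interferon gamma targets on the list, named after their values were seen. Of 23 measured antiviral genes of the type I interferon response, 7 were lower in effector cells in KO and 5 in WT chimeras, with 0 higher and medians of -0.65 and -0.34. Oasl2, of the oligoadenylate synthetase family, had the largest of these differences that both share (-2.11 ± 0.36 in KO, -2.20 ± 0.36 in WT, adjusted p = 0.00176 and 0.00224). Bst2, which tethers virus particles to the cell, was at -0.65 and -0.82, and Cmpk2, a nucleotide kinase of mitochondria, at -1.62 and -1.29. Between KO and WT, 0 genes of either list passed in effector or in memory cells. The antiviral genes had medians of 0.34 in effector cells, with 19 of 23 above 0, and of 0.44 in memory cells, with 21 of 23 above 0, none of which passed. Of all 22180 genes, 11824 lay above 0 in effector cells and 12145 in memory cells.

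Autophagy proteins that steer IRG and GBP proteins to their membranes were listed as 13 genes, all measured. With all arrays, none of them passed between effector and memory cells in KO or WT chimeras, or between KO and WT in either subset. Without effector KO 4, Gabarapl1 passed as higher in effector KO than in memory KO (0.75, limma adjusted p = 0.043). It was named after its values were seen. The medians between effector and memory cells were 0.01 in KO and 0.02 in WT chimeras. Atg5, of the machinery that conjugates LC3, came nearest to the threshold with all arrays, at -0.31 in KO chimeras (limma adjusted p = 0.0696). Without effector KO 4 it was at -0.23 (adjusted p = 0.148).

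The genes whose pattern over the 16 arrays was most like the mean of the 8 GTPases were Wwp1, Bst2, Aven, Socs1 and Zscan12. Predicted genes and genes named only by a clone or accession were left out of this ranking, among them family genes such as Gm12250. Likeness was the mean absolute difference between a gene's values and the GTPase mean, each centred on its own mean, and the 5 lay at 0.109 to 0.114 log2 units, against a median of 0.378 over all genes. Wwp1, a ubiquitin ligase gene, averaged 7.01 in effector KO, 6.93 in effector WT, 7.96 in memory KO and 7.56 in memory WT. Aven, a gene of apoptosis inhibition, averaged 6.27, 6.13, 6.82 and 6.61 in the same groups. Zscan12 had means of 2.19 to 3.06, a dim signal. By the same measure Irgm1 lay closest to the mean of the GTPases among the 8, at 0.135, and Iigp1 farthest, at 0.884. Gbp7 (0.414) and Gbp9 (0.393) also lay farther from it than the median of all genes. Gbp3 (0.370), Igtp (0.348), Gbp6 (0.300) and Irgm2 (0.186) lay under that median. Likeness to the mean is therefore not likeness to each GTPase.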

How the data were processed

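Expression was measured on 16 1-colour Affymetrix arrays, 4 per group. Per the labels' protocols, RNA of sorted cells was extracted with the RNeasy Micro Kit and 1 ng was amplified and labelled with the GeneChip WT Pico kit. The deposited values, for 41345 probe sets, were read as log2 signals that the authors had normalized. How they were normalized is not given in the sources used here. Nor is the log base, which was judged by the values' range, 0.7365 to 14.0453. The platform's probe table gave 23521 probe sets a single gene symbol and 1814 several, and did not name 16010. Entrez IDs matched 23328 of the single-symbol probe sets to RefSeq, and 0 symbols changed. Where several probe sets measured a gene (1082 genes), the brightest on average was kept, which left 22180 genes. Detection calls were not used here, and the number of arrays limits the precision.

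All 16 arrays entered 1 linear model with the 4 group means, fitted in limma 3.58.1 (R 4.3.3), with 12 residual and 4.23 prior degrees of freedom. The 6 comparisons used two-sided tests with Benjamini-Hochberg adjustment over all genes, at a threshold of 0.05. Alternatives were other probe set rules, filters, normalizations, variance models, blocks and fits without 1 array. The fit was tested on simulated data. There a change of 0.5 log2 units was called in 34.3% of changed genes for memory KO against WT. It was called in 40.3% for effector KO against WT and in 5.97% for the interaction. A change of 1 was called in 83.6%, 88.1% and 62.7%. A gene that did not pass may therefore still differ by about 0.5. Promoters came from RefSeq tables (GRCm38.p6), and motifs were found as exact letters. The search for protein motifs was not run, since no protein sequence was used here.

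The members and the gene lists were chosen with earlier results of these data known. The text names all members, up to 4 genes of each list with the smallest p in a comparison, Ifng, Ifngr1, Ifngr2, Irf1 and the sort genes, and the 5 genes most like the members. Genes named outside that rule are marked. Replicate numbers were not taken as pairs, since the labels do not say so and not every correlation of same-numbered arrays was over 0.1.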

Additional observations from a re-analysis of the deposited data

Results flagged for a closer look

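Irgm1 on array effector WT 4 stood at 6.89, while the other effector WT arrays lay at 6.67 to 6.70, a gap of 0.874 of the range of the group, above Dixon's 95% critical value. It was the 1 array so marked in 32 sets of 4 values, and chance marks about 1 in 20 sets. Without this array the log2 fold change of Irgm1 between effector WT and memory WT was -0.66 (limma adjusted p = 0.0718), against -0.60 with it.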

How the results depend on the processing

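The calls of Iigp1, Igtp and Irgm2 between effector and memory cells stood under every alternative run, in KO and in WT chimeras, and Irgm1 kept its call in KO chimeras. Its WT call had an adjusted p of 0.053 with genotype and replicate number as a replicate block, which left 3 of 8 GTPases called, beside the fits without 1 array given above. The deviations of same-numbered effector and memory arrays correlated at 0.018 to 0.147 in KO (3 of 4 pairs over 0.1) and at 0.087 to 0.239 in WT chimeras (3 of 4 pairs over 0.1), and 3 of 4 KO and 4 of 4 WT arrays correlated best with their own number, a hint from the data and not from the design. The replicate number as a block, which the labels do not support as a pairing, brought Irgm2 past the threshold for KO against WT over both subsets (0.41, adjusted p = 0.0477), so that 1 of 8 GTPases was called there. That block raised the count over all genes to 389 from 43 in that comparison, to 29 from 12 in effector cells and to 104 from 25 in memory cells. Fits of the compared arrays alone called 4 genes in effector cells, 7 in memory cells, 600 for effector against memory in KO and 1320 in WT chimeras, where the main counts were 12, 25, 1649 and 715. Among genes above the mean array median 95 passed for KO against WT over both subsets.

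Without 1 array the counts ranged from 4 (without effector WT 1) to 42 (without effector KO 2) in effector cells, 11 (without memory KO 4) to 249 (without memory KO 3) in memory cells, 0 to 5 (without memory KO 3) for the interaction, 23 (without memory WT 1) to 329 (without effector KO 2) over both subsets, 961 (without memory KO 4) to 2044 (without effector KO 4) for effector against memory in KO and 359 (without memory WT 1) to 1037 (without effector KO 4) in WT chimeras. The number of GTPases called stayed at 4 in KO and was 3 or 4 in WT chimeras, and it was 0 elsewhere.

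The signs that turned belong to GBP values that never passed. Gbp6 in effector KO against WT (0.02) was at -0.017 after quantile normalization and at -0.118 to 0.158 without 1 array. Gbp3 over both subsets (0.03) was at -0.002 with arrays centred on their medians. Without 1 array, Gbp9 in effector KO against WT ranged from -0.035 to 0.129, Gbp6 in the interaction (-0.13) from -0.274 to 0.002 and Gbp9 in the interaction (-0.24) from -0.474 to 0.003. For effector against memory, Gbp9 in KO ranged from -0.303 to 0.173, Gbp7 in KO from -0.012 to 0.110 and Gbp6 in WT from -0.121 to 0.125. The cause was not tested for any of these.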
